A study of Danio rerio with 8 samples.

Results

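The genes of the mitochondrial respiratory chain were examined in bulk RNA sequencing of sorted zebrafish hindbrain neurons. The members are the 118 of 28802 gene rows whose symbol names a subunit of complexes I to V, cytochrome c or an assembly factor with a matching symbol (*mt-nd*, *mt-co*, *mt-cyb*, *mt-atp*, *ndufa* to *ndufc*, *ndufs*, *ndufv*, *sdha* to *sdhd*, *uqcr*, *cyc1*, *cycs*, *cox4* to *cox8* and *atp5*). Of these, 13 are encoded in the mitochondrial genome (symbols beginning *mt-*) and 105 in the nucleus, and the 2 sets were read separately. Each library came from larvae at 72 to 74 hours post-fertilization. The *phox2a* null group is labelled *phox2a*-/- and came from a line made by CRISPR/Cas9 with premature stop codons, for which the study describes several alleles, and the allele behind each library is not given in the sources used here. The sibling group is labelled *phox2a*+/+ or +/-, so heterozygous and wild-type larvae were combined. Both groups carried the reporters Tg(UAS:E1b-Kaede) and Tg(isl1:GFP) and the driver Tg(-6.7Tru.Hcrtr2:GAL4-VP16), in fish that the study describes as without pigment through *mitfa* loss. Neurons were harvested from the hindbrain and sorted by green fluorescence, which did not separate Kaede from GFP, so each library can hold vestibular neurons and other labelled neurons. The study made 4 experimental repeats, each with 1 null and 1 sibling library, lettered A to D here by their run codes, and repeats A to C were compared. Null A, B and C below are the libraries labelled null in those repeats, and siblings A, B and C are their partners.

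The respiratory chain passes electrons from NADH and succinate to oxygen and uses the protons it pumps to make ATP. Complex I oxidizes NADH, complex II oxidizes succinate, complex III passes electrons to cytochrome c, complex IV reduces oxygen, and complex V is the ATP synthase. All of them except complex II combine subunits from both genomes. The mitochondrial genome is transcribed from a few start sites as long RNAs that are then cleaved into single messages, while each nuclear subunit gene has its own promoter. Core subunits carry the redox centers or the catalytic and proton-moving parts, accessory subunits are often small proteins around them, and assembly factors help to build a complex without staying in it. Neurons depend on this chain for most of their ATP.

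Null C stood apart from the other 5 libraries. It held 9579375 reads on genes against 15156983 to 19968857 in the others, of its listed reads 62.4% were not aligned against 11.8 to 16.1%, and it had reads on 11087 genes against 16675 to 18409. Its TMM factor, edgeR's scaling for composition, was 0.518, against 1.104 to 1.22 elsewhere. A row of the mitochondrial genome that carries no gene symbol held 4.21% of gene reads in null C and 0.879 to 1.05% in the other 5. Summed levels of 11 neuronal marker genes were 16662 to 26161 CPM (counts per 1000000 gene reads) in null libraries and 19193 to 25708 CPM in siblings, with reads on all 11. Null C was the lowest library there. In normalized CPM (CPM divided by the TMM factor) it was the highest, at 32186 against 15774 to 23698 in the other 5. The targeted gene *phox2a* had 1125, 2811 and 1015 reads in null A, B and C, against 9355, 9465 and 4151 in siblings. In CPM *phox2a* stood at 66.2, 185 and 106 in null A, B and C, against 468, 493 and 222 in siblings. Every null library was thus below every sibling library in CPM. In normalized CPM it stood at 59.5, 168 and 205, against 403, 405 and 200.1, so null C was not below its own siblings on that scale. The log2 fold change of *phox2a* was -1.22 (SE 0.62, edgeR Benjamini-Hochberg adjusted p = 1.00), and -1.58 without null C. For these reasons many values below are also given without null C, where 2 null libraries face 3 sibling libraries. Ranks of libraries on genes given in normalized CPM are on that scale, and in CPM the rank of null C can be lower. The labels name repeats and not separate clutches, so p-values measure only the spread between these libraries. In bulk RNA, fewer cells of a type and less RNA per cell cannot be told apart.

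The mitochondrially encoded genes took up a part of the reads that differed between genotypes by less than the spread of libraries. Their share of gene reads was 1.99, 1.46 and 1.81% in null A, B and C, against 1.63, 1.21 and 2.07% in siblings A, B and C. Null libraries were above their own siblings in repeats A and B and below them in repeat C, and the groups overlapped. The mean share was 1.75 ± 0.272% in null libraries and 1.64 ± 0.428% in siblings (SD, n = 3 each, two-sided exact permutation test of the log2 share, p = 0.7). With 3 libraries against 3 this test cannot give a p below 0.1. The log2 difference of null minus siblings was 0.12, and 0.091 without null C. With the mitochondrial rows that carry no such gene symbol added, the share was 2.99, 2.403 and 6.09% in null A, B and C, against 2.52, 2.29 and 3.13% in siblings A, B and C. Each null library was then above its own siblings, by the most in repeat C, and the groups still overlapped (log2 difference 0.43, n = 3 each, exact permutation p = 0.5).

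The nuclear encoded members took 1.18, 1.11 and 2.73% of gene reads in null A, B and C, against 1.31, 1.28 and 1.16% in siblings A, B and C. Null B was below every sibling library, null A just above the lowest of them and null C above all, so the groups overlapped. The mean was 1.67 ± 0.913% in null libraries and 1.25 ± 0.0788% in siblings (SD, n = 3 each, exact permutation p = 0.9).

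Mitochondrial reads divided by nuclear member reads gave 1.68, 1.31 and 0.663 in null A, B and C, against 1.24, 0.945 and 1.78 in siblings A, B and C. The ratio was higher in null than in siblings in repeats A and B and lower in repeat C. The log2 difference of null minus siblings was -0.17 (n = 3 each, exact permutation p = 0.7, and p = 1 when labels were exchanged within repeats, where 0.25 is the smallest possible). Without null C the difference was 0.21, the opposite sign.

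**Figure D1:**
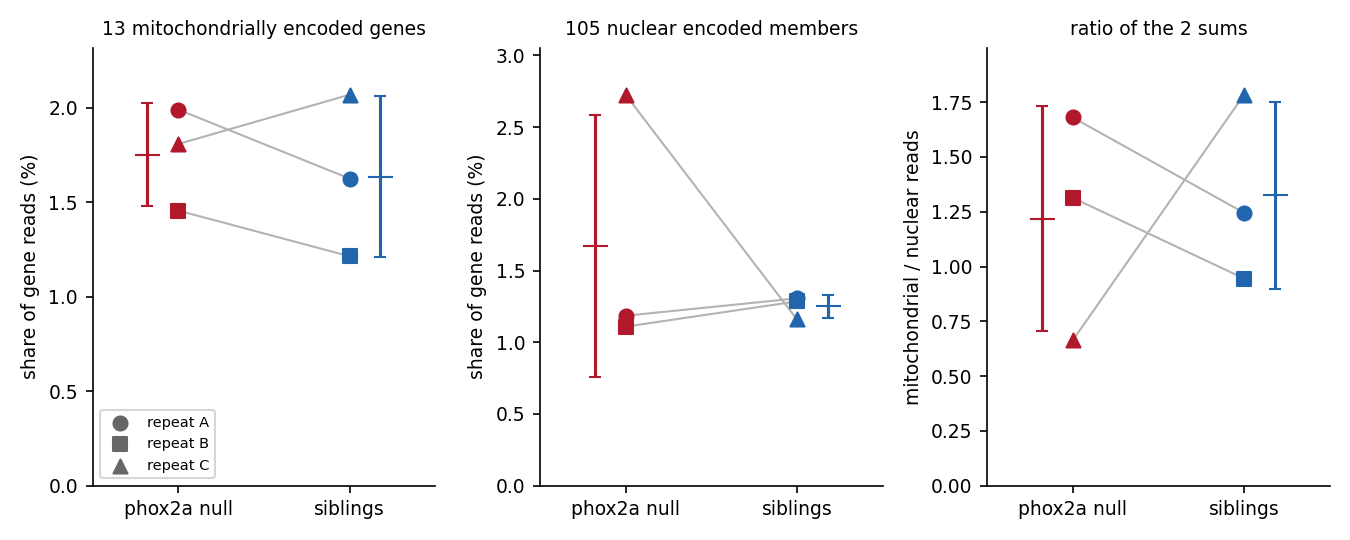
Share of gene reads (%) taken by the 13 mitochondrially encoded genes and by the 105 nuclear members, and the ratio of these sums, for null and sibling libraries, with grey lines joining a repeat and bars giving mean ± SD (n = 3). Null C has the highest nuclear share, 2.73%, and the lowest ratio, 0.663, while its mitochondrial share of 1.81% lies inside the sibling range.

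No mitochondrially encoded gene was called between genotypes, in a test that called 0 of 14824 genes (0% called at an adjusted p under 0.05 with an absolute log2 fold change over 2). The adjusted p of every tested member was 1.00 (edgeR quasi-likelihood test, Benjamini-Hochberg). Of the 13 genes, 12 had a positive log2 fold change and 1 (*mt-co1*) a negative one, with a median of 0.93 against -0.15 over all genes tested. At an unadjusted p under 0.05, 1 of the 13 was higher in null, where 2.46% of all genes were, and 0 were lower, where 0.762% were. Without null C the median over the 13 was 0.06, with 8 positive and 5 negative, and 0 passed an unadjusted p of 0.05 in either direction, against 1.73% of all genes higher and 2.32% lower. The median log2 ratio of null to siblings taken repeat by repeat was 0.47 (A), 0.31 (B) and 1.46 (C), and 13, 9 and 11 of the 13 were above 0. Over all genes tested the medians were -0.01 (A), -0.01 (B) and -1.32 (C), so ratios in repeat C have a lower background.

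The 7 mitochondrial genes of complex I code for its membrane arm, which moves protons. *mt-nd1* read 235, 68.2 and 5552 normalized CPM in null A, B and C, against 198, 78.5 and 338 in siblings A, B and C. Null C was 16.4-fold above the highest other library, while null B was the lowest and null A inside the sibling range. Its log2 fold change of 3.25 (SE 1.47, unadjusted p = 0.0565) became -0.45 without null C.

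*mt-nd3* was the 1 mitochondrial gene under an unadjusted p of 0.05. It read 34.5, 45.2 and 888 normalized CPM in null A, B and C, against 33.9, 20.3 and 58.3 in siblings A, B and C. Null A and B lay within the sibling range, and null C was 15.2-fold above the highest other library. Its log2 fold change of 3.11 (SE 1.27, unadjusted p = 0.0396) became 0.08 without null C. *mt-nd4l* showed the same shape, with 36.5, 18.2 and 311 normalized CPM in null A, B and C, against 24.9, 10.6 and 46 in siblings A, B and C. Null A and B were again inside the sibling range, and its log2 fold change of 2.17 (SE 1.14, unadjusted p = 0.0919) became 0.00032 without null C.

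The other 4 mitochondrial genes of complex I had smaller log2 fold changes. *mt-nd4*, whose reading frame overlaps that of *mt-nd4l* in vertebrates, read 723, 309 and 779.6 normalized CPM in null A, B and C, against 442, 255 and 769.8 in siblings A, B and C, so null C was level with siblings C, and the log2 fold change was 0.31, or 0.07 without null C. *mt-nd5* read 407, 250.4 and 799 normalized CPM in null A, B and C, against 250.4, 201 and 380.2 in siblings A, B and C. *mt-nd2* read 403, 246 and 1137 normalized CPM in null A, B and C, against 262, 170.01 and 358 in siblings A, B and C. For *mt-nd5* and *mt-nd2* null C was the highest library, null A was just above the siblings and null B lay within their range, with log2 fold changes of 0.81 and 1.18, or 0.23 and 0.29 without null C. In CPM null C stood at 413.7 on *mt-nd5*, below null A at 452.3 and siblings C at 422.8. *mt-nd6*, the only protein gene on the other strand in vertebrates, read 77.1, 36 and 288 normalized CPM in null A, B and C, against 41.1, 53.3 and 79.1 in siblings A, B and C. Null B was the lowest library and null C the highest, with a log2 fold change of 1.21, or -0.04 without null C. Reads of a gene and its antisense strand cannot be told apart where counting ignores strand.

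In complex IV, the catalytic subunit gene *mt-co1* was lowest in null C. It read 6973, 5580.3 and 1958 normalized CPM in null A, B and C, against 5783, 3233 and 7311 in siblings A, B and C, so null C was the lowest library while null A and B were within the sibling range. *mt-co2*, whose protein receives electrons from cytochrome c, read 3823, 2413 and 10752 normalized CPM in null A, B and C, against 2791, 2217 and 3916 in siblings A, B and C. *mt-co3* read 2722, 2348 and 6807 normalized CPM in null A, B and C, against 2234, 2506 and 2837 in siblings A, B and C. For both, null C was the highest library and null A and B lay within the sibling range. Log2 fold changes were -0.17 for *mt-co1*, 0.93 for *mt-co2* and 0.65 for *mt-co3*, and 0.20, 0.06 and -0.01 in the same order without null C.

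*mt-cyb*, the mitochondrial gene of complex III, read 1825, 1619 and 2859.7 normalized CPM in null A, B and C, against 1469, 751 and 1823 in siblings A, B and C. Null C was the highest library, null A was just above the highest sibling library and null B was within their range. In CPM *mt-cyb* stood at 1480 in null C, against 2031 and 1787 in null A and B. Siblings A, B and C stood at 1708, 914 and 2027 CPM, so null C was above siblings B only. The log2 fold change of *mt-cyb*, 0.64 (SE 0.49, edgeR unadjusted p = 0.228), was 0.34 without null C, the largest positive value of the 13 genes in that comparison. The ATP synthase genes *mt-atp6* and *mt-atp8* share an overlap in vertebrates, and reads in it may have been assigned to either or to neither. *mt-atp6*, which codes for the subunit that forms the proton path, read 587, 240.3 and 2762 normalized CPM in null A, B and C, against 424, 469 and 646 in siblings A, B and C. *mt-atp8* read 44.3, 16.9 and 38.1 normalized CPM in null A, B and C, against 29.6, 12.1 and 49.9 in siblings A, B and C. Null C was 4.28-fold above the highest other library on *mt-atp6*, where null B was the lowest, and inside the range on *mt-atp8*. Log2 fold changes of 1.22 and 0.12 were -0.32 and -0.01 without null C.

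**Figure D2:**
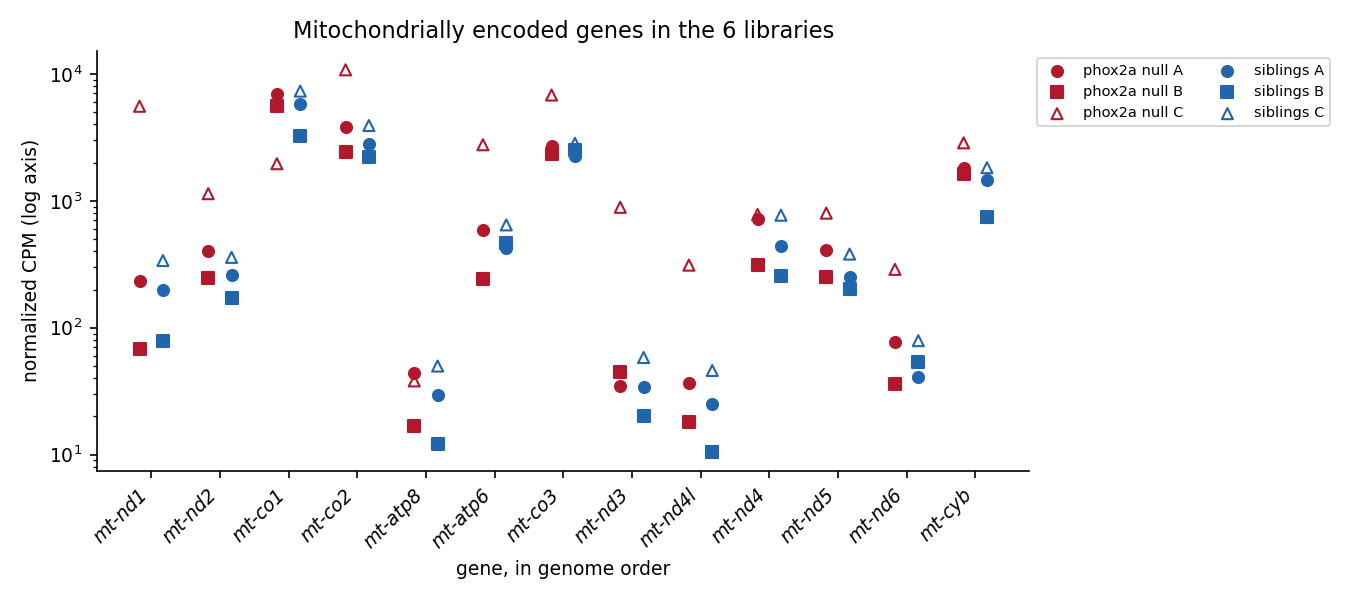
Normalized CPM (log axis) of the 13 mitochondrially encoded genes in genome order, null left of siblings, with the marker giving the repeat and open triangles repeat C. The open null triangle lies far above the rest for *mt-nd1* (5552 against at most 338) and below the rest for *mt-co1* (1958 against at least 3233).

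The makeup of the mitochondrial reads differed in null C. Of the reads on the 13 genes, *mt-co1* held 39, 42.3 and 5.61% in null A, B and C, against 41.4, 32.4 and 39.3% in siblings A, B and C. *mt-nd1* held 1.31, 0.517 and 15.9% in null A, B and C, against 1.42, 0.786 and 1.82% in siblings A, B and C. *mt-co2* held 21.4, 18.3 and 30.8% in null A, B and C, against 19.96, 22.2 and 21% in siblings A, B and C. Null C thus had the lowest share of *mt-co1* and the highest share of *mt-nd1* and *mt-co2*, and the other 5 libraries overlapped between genotypes. The share of *mt-cyb* was 10.2, 12.3 and 8.19% in null A, B and C, against 10.5, 7.53 and 9.79% in siblings A, B and C, where null C lay inside the range. The part that alignment or depth had in the makeup of null C was not tested.

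Of the 105 nuclear encoded members, 97 had enough reads to be tested and 0 were called. Log2 fold changes were positive for 63 and negative for 34, with a median of 0.56 against -0.15 over all genes tested. At an unadjusted p under 0.05, 12 of the 97 were higher in null and 0 lower, where 2.46% and 0.762% of all genes were. With no scaling factors between libraries the medians were 0.28 over the mitochondrial, 0.05 over the nuclear and -0.36 over all genes. The 12 were *atp5mf*, *atp5md*, *ndufb2*, *cox7a2a*, *atp5mea*, *ndufa3*, *ndufa1*, *cox7c*, *cox8a*, *uqcr10*, *ndufv3* and *cox6c*. Without null C, 0 of the nuclear members passed in either direction, beside 1.73% and 2.32% of all genes, and their median was -0.02 against -0.03 over all genes. DESeq2, which called 0.842% of the genes it gave an adjusted p, called 0 of the 68 nuclear and 0 of the 11 mitochondrial members with one. It gave a fold change but no p to each of the 12 above, as it does by default for genes with an outlying count. They could thus not be called there. Their log2 fold changes were positive in that fit, which held null C as the edgeR fit did. DESeq2 with the repeat as a block called 1.85% of the genes it gave an adjusted p, and 1 nuclear member, *cox8b*.

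**Figure D3:**
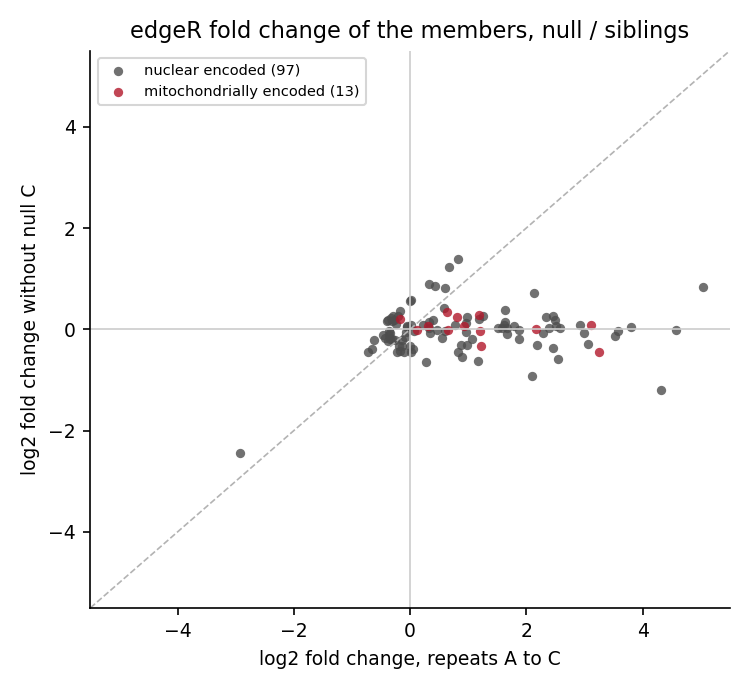
edgeR log2 fold change of null over siblings for 13 mitochondrial and 97 nuclear members, with all 3 repeats on the horizontal axis and without null C on the vertical axis. The points spread along the horizontal axis up to 5.03 (*cox8b*) and gather near 0 on the vertical axis, and the dashed line marks equal values.

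Null C was at least 4-fold above the highest of the other 5 libraries on 33 of the 97 nuclear members and 4 of the 13 mitochondrial genes, against 8.77% of all genes tested. It was at least 4-fold below the lowest of them on 6 nuclear members and 0 mitochondrial genes, against 24.2% of all genes. When levels were scaled by gene reads alone, null C was above by that margin on 19 of the 97 nuclear members and 2 of the 13 mitochondrial genes. Over all genes tested it was above on 591 of 14824. By the same scale it was below on 16 of the 97 nuclear members and 0 of the 13 mitochondrial genes, against 5116 of 14824 over all genes. Of the 33, 11 are accessory subunits of complex I, 9 subunits of complex IV, 8 subunits of complex V, 4 accessory subunits of complex III and 1 belongs to the *ndufa4* family. None of the 6 tested core subunits of complex I, the 5 subunits of complex II, the 3 tested electron carriers of complex III and cytochrome c or the 11 assembly factors was among them.

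**Figure D4:**
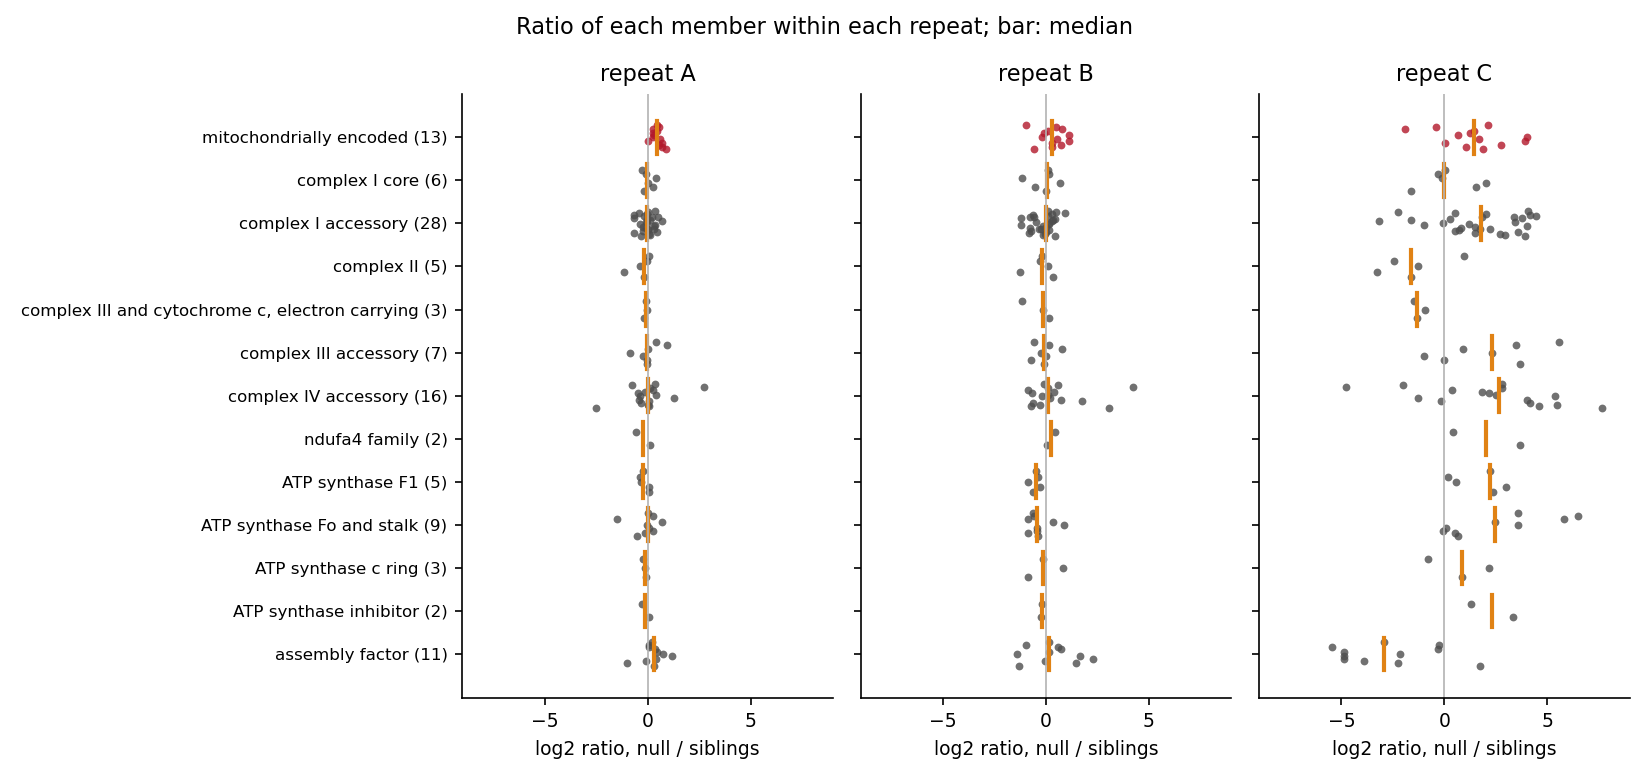
Log2 ratio of null to siblings (normalized CPM plus 0.5) for each tested member in repeats A, B and C, by role, with the number of genes in parentheses and an orange bar at the median. In repeats A and B the medians lie within 0.5 of 0, and in repeat C they run from -2.95 for assembly factors to 2.66 for complex IV subunits. The median over all genes tested in repeat C, not drawn, was -1.32.

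Core subunits of complex I, which hold its flavin and iron-sulfur centers, had a median log2 fold change of -0.06 over 6 tested genes and medians of -0.02, 0.04 and -0.03 in repeats A, B and C. Over all genes tested the median in repeat C was -1.32. *ndufv1*, which binds NADH and the flavin, read 191, 89.7 and 672 normalized CPM in null A, B and C, against 158, 128 and 231 in siblings A, B and C. Null C was the highest library and null B the lowest, so the groups overlapped, with a log2 fold change of 0.88, or -0.31 without null C. Among the other tested core genes, *ndufs3*, *ndufs7*, *ndufs8a* and *ndufv2* had log2 fold changes of -0.06, -0.31, 1.19 and -0.46, or 0.06, -0.20, 0.20 and -0.12 without null C.

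Accessory subunits of complex I had a median log2 fold change of 0.69 over 28 tested genes, 22 positive and 6 negative, and 0.03 without null C. In repeat C their log2 ratios had a median of 1.76 with an interquartile width of 2.96, against medians of -0.01 in A and -0.01 in B with widths of 0.46 and 0.76. *ndufa3* read 81.9, 95.6 and 2009.5 normalized CPM in null A, B and C, against 93.8, 89.7 and 92.8 in siblings A, B and C. *ndufa1* read 94.4, 64.7 and 1519 normalized CPM in null A, B and C, against 73.1, 60.1 and 89.2 in siblings A, B and C. *ndufb2* read 70.03, 61 and 705 normalized CPM in null A, B and C, against 55.6, 66.4 and 43.4 in siblings A, B and C. In all of them null C was over 10-fold above every other library, and null A and B stood within or close to the sibling range. The fitted log2 fold changes were 2.99 for *ndufa3*, 2.92 for *ndufa1* and 2.34 for *ndufb2*, with unadjusted p of 0.0379, 0.0367 and 0.0457. Without null C they were -0.07, 0.09 and 0.24. *ndufv3*, an accessory subunit beside the NADH site, read 32.1, 41.7 and 574 normalized CPM in null A, B and C, against 40.3, 30.4 and 37.1 in siblings A, B and C. Null A was inside the sibling range and null B just above it, and its log2 fold change was 2.59, or 0.03 without null C. *ndufa10* showed the reverse, with 141, 140.1 and 21.8 normalized CPM in null A, B and C, against 141, 101 and 107 in siblings A, B and C. Null C was the lowest library and null A and B were at or near the highest sibling library.

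*ndufa4*, first assigned to complex I and found in mammals with complex IV, read 459, 503 and 564 normalized CPM in null A, B and C, against 675, 366 and 422 in siblings A, B and C. All 3 null libraries lay inside the sibling range, and its log2 fold change was 0.06. Its relative *ndufa4l* read 66, 70.9 and 904 normalized CPM in null A, B and C, against 60.7, 67.7 and 70.8 in siblings A, B and C. Null C was 12.8-fold above the highest other library and null A and B were within the sibling range or just above it.

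The 11 assembly factors of complexes I and II (*ndufaf1* to *ndufaf7* and *sdhaf1* to *sdhaf4*) had log2 fold changes with a median of -0.26, 3 positive and 8 negative, and 0.19 without null C, with 9 positive and 2 negative. Median log2 ratios were 0.31, 0.16 and -2.95 in repeats A, B and C, beside -1.32 over all genes tested in repeat C. *ndufaf1* read 42.5, 40.4 and 2.62 normalized CPM in null A, B and C, against 36.4, 36.1 and 23.6 in siblings A, B and C. *ndufaf3* read 39.6, 49.9 and 0.605 normalized CPM in null A, B and C, against 37.8, 33.1 and 48.6 in siblings A, B and C. *ndufaf5* read 16.1, 11.8 and 0 normalized CPM in null A, B and C, against 11.6, 10.5 and 14.3 in siblings A, B and C. Null C was below every other library on all of them, and null A and B lay above or within the sibling range. On the 2 that follow null C was not the lowest library. *ndufaf2* read 24, 6.93 and 13.3 normalized CPM in null A, B and C, against 22.7, 14.1 and 16.2 in siblings A, B and C, with null B the lowest. *sdhaf4* read 16.5, 6.16 and 68.4 normalized CPM in null A, B and C, against 13.2, 15.9 and 19.9 in siblings A, B and C, with null C the highest. The assembly factors had low levels, and a count of 0 in null C allows up to 0.313 CPM of gene reads, a limit that covers counting error only.

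Complex II is encoded wholly in the nucleus. Its 5 genes had a median log2 fold change of -0.43 (1 positive, 4 negative), -0.17 without null C, and medians of -0.15, -0.17 and -1.60 in repeats A, B and C. The value in repeat C lay near the median over all genes tested, -1.32, whose interquartile width was 4.11. *sdha*, the flavin subunit, read 189.8, 187 and 318 normalized CPM in null A, B and C, against 180.3, 211 and 164 in siblings A, B and C. Null A and B were inside the sibling range and null C above it. In CPM null C was instead the lowest library, at 164.7 against 182.0 to 256.3 in siblings. *sdhb*, the iron-sulfur subunit, read 132, 110.2 and 26.2 normalized CPM in null A, B and C, against 135, 136 and 145 in siblings A, B and C. All 3 null libraries were below all 3 sibling libraries, null A by a narrow margin. Its log2 fold change of -0.63 (SE 0.68, unadjusted p = 0.378) was -0.21 without null C. *sdhb* was the 1 member with this order, among the 7.53% of all genes tested whose null libraries were all below the siblings. The membrane anchor *sdhdb* read 138, 139 and 66.3 normalized CPM in null A, B and C, against 154, 109.7 and 202 in siblings A, B and C. Null C was the lowest library, null A and B were inside the sibling range, and the log2 fold change was -0.43.

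In complex III, the electron carriers *cyc1* (cytochrome c1) and *uqcrfs1* (the Rieske iron-sulfur protein) and cytochrome c itself, *cycsb*, all had negative log2 fold changes. *cyc1* read 229, 84.6 and 72.4 normalized CPM in null A, B and C, against 244, 193 and 202 in siblings A, B and C. *uqcrfs1* read 286, 270.4 and 131 normalized CPM in null A, B and C, against 320.4, 242 and 329 in siblings A, B and C. *cycsb* read 333, 256 and 200.04 normalized CPM in null A, B and C, against 335, 287 and 379 in siblings A, B and C. Null C was the lowest library for each, and null A lay within the sibling range. Their log2 fold changes were -0.73, -0.37 and -0.34 in that order, or -0.46, -0.11 and -0.19 without null C.

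The accessory subunits of complex III had a median log2 fold change of 1.16 over 7 genes and -0.08 without null C. *uqcr10* read 56.8, 37.1 and 1791 normalized CPM in null A, B and C, against 42.5, 55.2 and 37.2 in siblings A, B and C. Null C was 31.5-fold above the highest other library, null A was just above the siblings and null B was at their lowest level. Its log2 fold change of 3.81 (SE 1.42, unadjusted p = 0.0271) was 0.05 without null C. *uqcrc1*, a core protein that faces the matrix, read 399.7, 474 and 573 normalized CPM in null A, B and C, against 388, 273 and 305 in siblings A, B and C. On that scale all 3 null libraries were above all 3 sibling libraries, with a log2 fold change of 0.58 (SE 0.45, edgeR unadjusted p = 0.226) and 0.43 without null C. In CPM it read 444.7, 522.9 and 296.8 in null A, B and C, against 450.8, 332.6 and 339.6 in siblings A, B and C. Null C was then the lowest library and the groups overlapped. *uqcrb* read 4.39, 4.84 and 27 normalized CPM in null A, B and C, against 2.07, 4.28 and 1.93 in siblings A, B and C. It had the same order in normalized CPM, by a narrow margin in null A, with a log2 fold change of 2.12, or 0.73 without null C. In CPM null A stood at 4.88, below siblings B at 5.21.

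Nuclear subunits of complex IV had a median log2 fold change of 1.62 over 16 tested genes, 15 positive and 1 negative (*cox5ab*), and 0.11 without null C, with 10 positive and 6 negative. Their median log2 ratios were 0.03, 0.10 and 2.66 in repeats A, B and C. *cox7c* read 159.6, 204 and 6186 normalized CPM in null A, B and C, against 159.97, 249 and 141 in siblings A, B and C. Null C was 24.9-fold above the highest other library and null A and B were inside the sibling range. Its log2 fold change of 3.57 (SE 1.36, unadjusted p = 0.0297) was -0.02 without null C. *cox6c* read 35.8, 56.2 and 1629.8 normalized CPM in null A, B and C, against 46.9, 65.2 and 38.3 in siblings A, B and C. *cox7a2a* read 202, 259 and 2962 normalized CPM in null A, B and C, against 267, 154 and 185 in siblings A, B and C. *cox8a* read 24.8, 17.3 and 599.5 normalized CPM in null A, B and C, against 23.4, 29.4 and 24 in siblings A, B and C. Null C was the highest library for each of these. Null A and B lay inside the sibling range, except that null A was below it on *cox6c* and null B below it on *cox8a*. The unadjusted p was 0.0297 for *cox7c*, 0.0341 for *cox6c*, 0.0407 for *cox7a2a* and 0.0469 for *cox8a*. Log2 fold changes of 3.52, 2.50 and 3.06 for *cox6c*, *cox7a2a* and *cox8a* were -0.14, 0.18 and -0.29 without null C.

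*cox5aa*, with *uqcrc1* and *uqcrb*, was 1 of 3 members whose null libraries were all above the siblings in normalized CPM. This order was seen in 3.1% of all genes tested. *cox5aa* read 167, 166 and 1091 normalized CPM in null A, B and C, against 152, 157 and 157 in siblings A, B and C. Null A and B exceeded the highest sibling library by a narrow margin, and the log2 fold change of 1.61 was 0.09 without null C. In CPM null A and B stood at 186.0 and 183.5, below siblings B at 191.3. None of the 3 members kept the order in CPM.

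Several complex IV subunits come as isoforms that differ between tissues in mammals. *cox4i1*, the common form of subunit 4, read 223, 137 and 1140.2 normalized CPM in null A, B and C, against 174, 149 and 162 in siblings A, B and C. Null C was the highest library and null B the lowest, with a log2 fold change of 1.63, or 0.14 without null C. *cox4i2*, a form linked to low oxygen in mammals, had 146, 161 and 0 reads in null A, B and C, against 17, 1 and 272 in siblings A, B and C. High and low libraries were found in both genotypes, with a log2 fold change of 0.33. *cox4i1l* had 0, 84 and 0 reads in null A, B and C, against 8, 73 and 32 in siblings A, B and C. *cox7a1*, a heart and muscle form in mammals, had 55, 19 and 0 reads in null A, B and C, against 21, 22 and 15 in siblings A, B and C. Both stayed low in every library, null C had none of either, and their log2 fold changes were 0.02 and 0.67. *cox6a1* read 159, 227 and 636 normalized CPM in null A, B and C, against 174, 173 and 177 in siblings A, B and C, with null C the highest library. *cox6b2* read 215, 151 and 1314 normalized CPM in null A, B and C, against 163, 139.9 and 228 in siblings A, B and C. *cox6b1* read 60.7, 39.2 and 258 normalized CPM in null A, B and C, against 83.7, 63.4 and 56.1 in siblings A, B and C. Null C was the highest library for both, and null B was the lowest for *cox6b1*.

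*cox8b* had 3, 61 and 503 reads in null A, B and C, against 74, 0 and 0 in siblings A, B and C. It was present in 3 null libraries and 1 sibling library, and the groups overlapped. Under DESeq2 blocked on the repeat its log2 fold change reached 8.52 (Benjamini-Hochberg adjusted p = 0.00709). Without the block DESeq2 gave *cox8b* 5.43 and no p, while with the block all 97 tested nuclear members had a p. The edgeR test gave 5.03 (SE 2.78, adjusted p = 1.00), and 0.83 without null C. In repeat A the siblings were the higher library.

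The ATP synthase genes had a median log2 fold change of 0.97 over 19 nuclear members, 13 positive and 6 negative. Without null C the median was -0.19, with 3 positive and 16 negative, beside 8061 positive and 8626 negative of all genes. Median log2 ratios were -0.10, -0.41 and 2.16 in repeats A, B and C. In the catalytic F1 head, all 5 genes had negative log2 fold changes without null C, with a median of -0.30. *atp5f1b*, the catalytic beta subunit, read 498, 412 and 2374 normalized CPM in null A, B and C, against 586, 574 and 513 in siblings A, B and C. Null A and B were below every sibling library and null C was 4.05-fold above the highest. *atp5fa1*, the alpha subunit, read 284, 201 and 1235 normalized CPM in null A, B and C, against 275, 312 and 238 in siblings A, B and C. Null B was below the siblings, null A inside their range and null C above. Their log2 fold changes of 0.97 and 1.06 were -0.30 and -0.19 without null C, with unadjusted p of 0.234 and 0.498.

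Among the members, the small membrane subunit genes *atp5mea* and *atp5md* had the largest excess of null C over the highest other library. *atp5md* read 23.8, 20.4 and 1532 normalized CPM in null A, B and C, against 19.5, 30.4 and 16.3 in siblings A, B and C. *atp5mea* read 9.04, 17 and 1751 normalized CPM in null A, B and C, against 26.4, 32 and 30.4 in siblings A, B and C. *atp5mf* read 73.8, 94.4 and 979.6 normalized CPM in null A, B and C, against 76, 51.8 and 80.8 in siblings A, B and C. Null C was 50.4-fold, 54.6-fold and 10.4-fold above the highest other library in that order. For *atp5mea* null A and B were below all sibling libraries, so that repeats A and B differed in sign from repeat C. Log2 fold changes were 4.57 for *atp5md*, 4.32 for *atp5mea* and 2.46 for *atp5mf*, and -0.01, -1.19 and 0.26 without null C. The unadjusted p of *atp5mea* without null C was 0.0599. The stalk subunit gene *atp5pb* read 177, 127 and 167 normalized CPM in null A, B and C, against 167, 174 and 159 in siblings A, B and C, and the groups overlapped. The c ring gene *atp5mc3a* read 252, 303 and 1086 normalized CPM in null A, B and C, against 277, 169.8 and 243 in siblings A, B and C, where null C was the highest library and null A and B were within or just above the sibling range.

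Zebrafish keep extra copies of several of these genes, and the share of one copy in the reads of its set was compared in 16 cases. Of the reads of *uqcrc2a* and *uqcrc2b*, *uqcrc2a* made up 30.5, 32 and 88.5% in null A, B and C, against 40.2, 35.4 and 43.2% in siblings A, B and C. Of the *ndufab1* pair, *ndufab1a* made up 29.3, 30.3 and 83.9% in null A, B and C, against 30.4, 40.4 and 31.3% in siblings A, B and C. Of the *atp5me* pair, *atp5mea* made up 2.68, 7.63 and 56.5% in null A, B and C, against 11.4, 16.5 and 11% in siblings A, B and C. In each pair the *a* copy held most of the reads in null C and the minority in the other 5 libraries. Of the *cox5a* pair, *cox5ab* made up 27.4, 23.2 and 5.501% in null A, B and C, against 25.6, 37.1 and 24% in siblings A, B and C, the lowest in null C. The share of *atp5mc3a* in the 3 c ring genes was 37, 42.1 and 68% in null A, B and C, against 36.3, 23.3 and 32.6% in siblings A, B and C. All 3 null libraries were above all 3 sibling libraries there, and it had the smallest p of the 16 (difference of 18.3 percentage points, n = 3 each, exact permutation p = 0.1, adjusted p = 1 over 16). No share passed the adjusted threshold. Reads of near-identical copies can be assigned to either or left out of both, so the split between copies is uncertain.

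**Figure D5:**
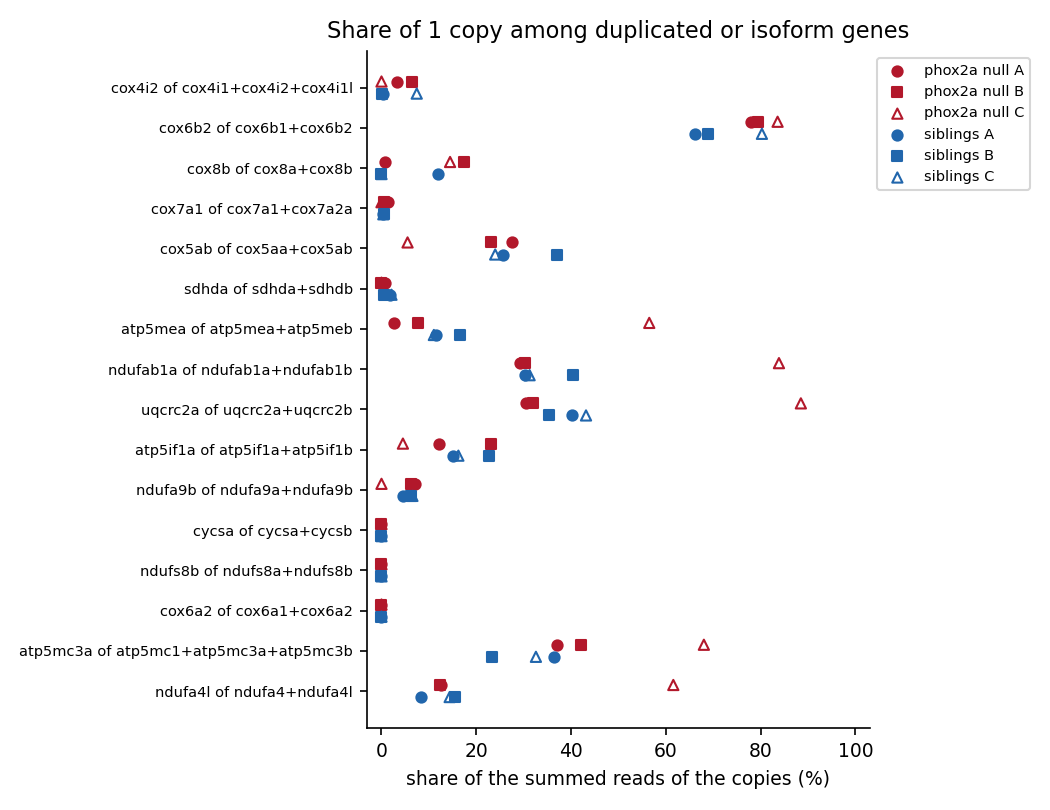
Share (%) of one copy among the summed reads of its duplicates or isoforms for 16 cases, null above siblings in each row, with the marker giving the repeat and open triangles repeat C. The open null triangle stands apart for *uqcrc2a* (88.5% against at most 43.2%), *ndufab1a*, *atp5mea*, *ndufa4l* and *cox5ab*.

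The 8 untested members had few or no reads. *cycsa*, *ndufa4l2a*, *ndufs8b*, *ndufb4* and *cox6a2* had no read in the 6 libraries, which allows up to 0.1502 to 0.313 CPM per library. *cox5b2* had 1 read in siblings B. *ndufs1*, the largest core subunit of complex I, had 0 to 11 reads per library. *ndufa4l2b* had 0 to 41 reads per library, and its relative in mammals responds to low oxygen.

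Lists of genes that surround the chain were also read. None of their tested genes was called by edgeR. Among 34 further assembly factors, 33 were tested, with 18 positive and 15 negative log2 fold changes and a median of 0.04, and 3 were higher in null at an unadjusted p under 0.05 (*cox14*, *cox17* and *uqcc3*). *cox17*, which delivers copper to complex IV, read 46.1, 61.4 and 396 normalized CPM in null A, B and C, against 31, 51.7 and 29.9 in siblings A, B and C. Null C was the highest library, null B was above the siblings and null A inside their range. The log2 fold change of 2.16 was 0.50 without null C. *atpaf2*, an assembly factor of the F1 head, had 1423, 0 and 0 reads in null A, B and C, against 763, 1068 and 339 in siblings A, B and C. Null A was the highest library and null B and C had none. It was called under DESeq2 blocked on the repeat (adjusted p = 0.00847) and not by the edgeR test (adjusted p = 1.00). *cox14* and *uqcc3* had log2 fold changes of 2.74 and 2.59, or 0.45 and 0.35 without null C.

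*polrmt*, the RNA polymerase that transcribes the mitochondrial genome, had 0, 0 and 0 reads in null A, B and C, against 66, 356 and 60 reads in siblings A, B and C. Every sibling library had reads and no null library did. Among genes with at least 10 reads in sum, 0.727% had this pattern, and 0 members did. The sibling mean was 6.99 ± 7.15 normalized CPM (SD, n = 3). A count of 0 was taken to allow 3 reads per null library, and the mean lay 22.3-fold above that limit. Siblings B carried much of the mean, and without that library it lay 9.12-fold above the limit. Both values cover counting error only and not the spread between libraries, so they do not establish a loss. The edgeR test gave an unadjusted p of 0.00772 and an adjusted p of 1.00. DESeq2 called it (adjusted p = 0.00206), and blocking on the repeat left it called (adjusted p = 0.0122). Over the 12 tested genes of mitochondrial DNA copying and transcription, 5 had positive and 7 negative log2 fold changes, and 1, *polrmt*, passed an unadjusted p of 0.05. Beside this, the share of reads on the mitochondrial genes that the enzyme transcribes was 1.46 to 1.99% in null libraries and 1.21 to 2.07% in siblings. With the mitochondrial rows that carry no such gene symbol added, it was 2.40 to 6.09% in null libraries and 2.29 to 3.13% in siblings. A link between the *polrmt* reads and these shares was not tested.

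Summed levels below are in CPM. Nuclear regulators of the chain (9 genes, among them *nrf1* and *ppargc1a*) had summed levels of 609, 576 and 62.4 CPM in null A, B and C, against 612, 626 and 619 CPM in siblings A, B and C. Null C was far below the other libraries, which lay close together, and in normalized CPM it stood at 120.6 against 514 to 557 in the other 5. The tricarboxylic acid cycle genes (17 tested, 5 positive and 12 negative) summed to 3076, 2597 and 942 CPM in null A, B and C, against 3268, 2519 and 2788 CPM in siblings. Null C was the lowest library, in contrast to its nuclear respiratory share, which was the highest. In the 8 tested genes of mitochondrial defence against oxidants, *txn2* had an unadjusted p of 0.0399 and read 19.1, 40.8 and 379.9 normalized CPM in null A, B and C, against 20.3, 29 and 17.6 in siblings A, B and C. Its log2 fold change was 2.72, or 0.41 without null C. Carrier, import and membrane genes (22 tested, 8 positive and 14 negative) had sums of 4389 to 5520 CPM in null libraries and 4687 to 5601 CPM in siblings. In normalized CPM null C stood highest for these at 8962, against at most 4961 elsewhere.

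Of marker lists for other cells, skin genes summed to 84.3, 0.792 and 2802 CPM in null A, B and C, against 3414, 90.5 and 419 CPM in siblings. The high libraries were null C and siblings A. The 3 cardiac muscle rows summed to 0 to 0.294 CPM in null libraries and 0 to 0.2003 CPM in siblings, and skeletal muscle genes to 12.01 to 95.1 CPM and 12.5 to 24.3 CPM. *epcam*, a skin adhesion gene, read 13.4, 0.359 and 5.65 normalized CPM in null A, B and C, against 78.8, 44.3 and 159 in siblings A, B and C. All 3 null libraries were below all 3 sibling libraries, an order seen in 7.53% of all genes tested. Its log2 fold change was -3.85 (edgeR unadjusted p = 0.0143), or -3.78 without null C. Of the 6 tested skin genes, 4 had positive and 2 negative log2 fold changes. The median of the skin list was 0.95, or -8.05 without null C.

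Motor neuron genes summed to 1094, 1239 and 255.7 CPM in null A, B and C, against 2759, 1722 and 929.6 CPM in siblings A, B and C. Each null library was below its own siblings and the groups overlapped, and all 5 tested genes had negative log2 fold changes (median -0.73, or -0.59 without null C). Glia genes summed to 1006 to 2527 CPM in null libraries and 1489.9 to 2284 CPM in siblings, and all 6 tested had positive log2 fold changes, with a median of 0.23. Erythroid genes summed to 14.4, 18.6 and 42.3 CPM in null A, B and C, against 10.3, 1.51 and 0.482 CPM in siblings A, B and C, so every null library was above every sibling library, though all were low. Except in siblings C, most of these reads were on *cahz*, the 1 tested gene of the 6. It had 206, 201 and 403 reads in null A, B and C, against 198, 27 and 0 in siblings A, B and C. The order of the sums is thus mainly that of 1 gene. Hair cell and otic genes summed to 101.6, 7.26 and 5.01 CPM in null A, B and C, against 0.2504, 19.6 and 0.107 CPM in siblings A, B and C. Of these, *otofb*, which acts in transmitter release of hair cells, had 221, 65 and 40 reads in null A, B and C, against 1, 0 and 0 in siblings A, B and C. All null libraries were above all siblings, an order seen in 3.1% of all genes tested (unadjusted p = 0.00355, edgeR adjusted p = 1.00). On the other genes of this list, *myo6b*, *s100t*, *pvalb8* and *otomp*, the groups overlapped. *myo6b* had 310, 45 and 5 reads in null A, B and C, against 0, 74 and 0 in siblings, and *pvalb8* 21, 0 and 0 against 0, 261 and 0. DESeq2 called *otofb* and *myhz2*, a muscle myosin gene, higher in null with and without the block. With the block it called *epcam*, *cyt1* and *mnx1* lower. *myhz2* had 4, 27 and 112 reads in null A, B and C and none in siblings. *mnx1* had reads in siblings A and B only, 235 and 884, and the edgeR test covered neither gene. *cyt1* had 7, 0 and 8382 reads in null A, B and C, against 3508, 135 and 334 in siblings. Its log2 fold change was -7.09 in blocked DESeq2 and 3.29 in edgeR, the opposite sign. Microglia and macrophage genes summed to 0.313 to 106.6 CPM in null libraries and 33.5 to 201.7 CPM in siblings, lowest in null C. The part of these cells in the respiratory values was not tested.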

How the data were processed

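Raw counts, in whole reads and without normalization, were deposited by the authors for each gene and library after alignment to GRCz11. The aligner is not given in the sources used here. Libraries were made from total RNA with a SMART-Seq kit. The submitters' processing notes name DESeq2. A second deposited table of normalized values was not used. Columns carry run codes, and repeats were lettered in their order. The 5 rows that name no gene held 41.2 to 98.1% of listed reads and were left out of library sizes. Repeat D was left out of the tests because earlier processing of these data took A to C as the repeats that the study analyzed. The study reports excluding a repeat, whose run code it does not give, for higher variance in the leading principal components. It names poor quality with very low transcript counts as the likely reason.

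edgeR 4.0.16 (TMM factors, filterByExpr, glmQLFit and glmQLFTest) compared 3 null with 3 sibling libraries on all genes, with Benjamini-Hochberg adjustment over 14824 genes. Standard errors are the coefficient over the root of F. Within-repeat ratios used normalized CPM plus 0.5. Alternatives were DESeq2 1.42.0, RLE factors, TMM factors without mitochondrial genes, no filter, 10 reads in every library, robust fitting, a block for the repeat, adding repeat D and dropping single libraries. Fits with no scaling factors and a mitochondrial share with unnamed rows of that genome were added after seeing the data. Shares and ratios were compared by exact permutation over libraries. The software was Python 3.11.15 with R 4.3.3. The fitting code was also tried on simulated data. That trial gives no measure of power or error for these libraries. Their common dispersion, edgeR's measure of spread between libraries of a group, was 1.28 in the main fit.

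The members and gene lists were chosen with earlier results of these data known. Genes named are *phox2a*, the 13 mitochondrial genes, the 2 nuclear genes of highest mean per complex, the 10 of smallest p, those whose groups did not overlap, tissue isoforms with their partners, members without reads, and list genes at an unadjusted p under 0.05. Values of 1 member are not reported singly here. Other members named as examples, and the roles used to group them, were chosen after their values were seen. The 2 libraries of a repeat were treated as a pair in the blocked fit because the series' design places both in 1 experimental repeat. Deviations from the genotype means correlated at 0.023, 0.082 and 0.051 within repeats A, B and C over 14824 genes. In the RefSeq gene table of GRCz12tu, used for names and gene order only, 116 of 118 symbols matched.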

Additional observations from a re-analysis of the deposited data

Results flagged for a closer look

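The libraries of repeat D entered only the alternative with all 4 repeats. In null D, *mt-cyb* had 18794 of 735217 gene reads, which is 25563 CPM, against 1285 CPM in siblings D, and it held 99.8% of the reads on the 13 mitochondrial genes against 13.9% in siblings D. In the same library *ndufb8*, an accessory subunit of complex I, had 5225 reads, or 7107 CPM, against 94.2 CPM in siblings D. Null D had reads on only 2214 genes, among them 33 of the 118 members, and 95.4% of its listed reads were not aligned. Both values drew attention because they are high in a library that the comparison of repeats A to C did not use. The cause was not tested.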

How the results depend on the processing

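The edgeR test across all genes called 0 genes, with 364 higher and 113 lower at an unadjusted p under 0.05, and DESeq2 called 128. With the replicate block DESeq2 called 287, among them 1 nuclear member (*cox8b*), while edgeR with the block called 0. With all 4 repeats edgeR called 40. The cause was not tested. No other alternative called a member.

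The median log2 fold change was 0.057 to 1.28 over the mitochondrial and -0.022 to 0.64 over the nuclear members when single libraries were left out, lowest without null C in both. The replicate block gave 0.69 and 0.30, and no scaling factors, an alternative chosen after seeing the data, 0.28 and 0.05, where the median of all genes was -0.36. DESeq2 gave 29 of the 97 tested nuclear members no p, among them all 12 under an unadjusted p of 0.05, and 1 of the rest was under it. The count of 12 was 3 without scaling factors, 24 with no filter, 0 with the block and 0 to 27 when single libraries were left out.

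The log2 difference in mitochondrial share, 0.12, was -0.078 to 0.31 when single libraries were left out, negative only without siblings B, 0.46 with all 4 repeats and 0.43 with the other rows of the mitochondrial genome, an alternative chosen after seeing the data. The log2 difference in the ratio, -0.17, was -0.46 to 0.21, positive without null C or siblings C, 0.37 as a mean of log2 CPM and 0.29 with all 4 repeats.

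Of 43 named genes with a fit, 22 kept their sign throughout and 21 did not, and none of these last was called. The log2 fold change turned to -0.25 (*mt-atp8*), -0.11 (*mt-nd4*), -0.32 (*ndufa4*), -0.15 (*sdha*), -0.091 (*cox4i1l*) with no scaling factors, to -0.0049 (*ndufa4*), -0.036 (*cox4i1l*) with no filter, to -0.0016 (*mt-atp8*), -0.055 (*ndufa4*) with 10 reads in every library, and to -0.87 (*mt-atp8*), -0.23 (*mt-nd4*), -0.24 (*ndufa4*) with all 4 repeats. With the replicate block it turned to -3.31 (*cox4i1l*), -0.29 (*cox7a1*), and with that block in DESeq2 to -3.47 (*cox4i1l*), -0.33 (*cox7a1*). Leaving out single libraries gave ranges of -0.32 to 1.69 (*mt-atp6*), -0.27 to 0.62 (*mt-atp8*), -0.56 to 0.20 (*mt-co1*), -0.0067 to 0.90 (*mt-co3*), -0.45 to 3.80 (*mt-nd1*), -0.011 to 0.74 (*mt-nd4*), -0.043 to 1.64 (*mt-nd6*), -0.11 to 0.33 (*ndufa4*), -0.065 to 3.49 (*ndufa3*), -0.025 to 4.09 (*cox7c*), -0.30 to 1.35 (*atp5f1b*), -0.19 to 1.45 (*atp5fa1*), -0.011 to 5.12 (*atp5md*), -0.14 to 4.03 (*cox6c*), -1.19 to 4.87 (*atp5mea*), -0.25 to 3.87 (*cox4i2*), -7.94 to 0.84 (*cox4i1l*), -0.45 to 1.22 (*cox6b1*), -0.56 to 1.22 (*cox7a1*), -0.29 to 3.59 (*cox8a*). Leaving out null C turned 16 of these signs, the most of any library.

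Depth limits genes with few reads, such as *cox4i1l*, *cox7a1* and most assembly factors, where 3 reads are 0.1502 to 0.313 CPM. With 3 libraries a group and 1 that stands apart, neither a difference nor its absence was established for any member.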

Other observations

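Glycolysis, which makes pyruvate and NADH, was read from 29 genes, 23 of them tested. Their summed level was 8749, 9112 and 4504 CPM in null A, B and C, against 12545, 9540 and 11117 CPM in siblings A, B and C. All 3 null libraries were below all 3 sibling libraries in CPM. In normalized CPM the sums were 7864, 8254 and 8700.04 in null A, B and C, against 10793, 7841 and 9997 in siblings A, B and C, so the groups overlapped and siblings B were lowest. Log2 fold changes were positive for 8 and negative for 15 of the 23, with a median of -0.53, or -0.35 without null C, and 0 were called. *pgam1a*, a phosphoglycerate mutase, was the 1 gene under an unadjusted p of 0.05, and it was higher in null with a log2 fold change of 2.37, or 0.28 without null C.

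The 4 rows with capital symbols fell outside the naming rule. *COX5B*, a subunit of complex IV, read 175, 236 and 1117 normalized CPM in null A, B and C, against 197, 273 and 171 in siblings A, B and C. Null C was the highest library. *NDUFB1* read 14.5, 13.6 and 139 in null A, B and C, against 11.98, 21.9 and 17.4 in siblings A, B and C, again highest in null C. *NDUFAF8*, an assembly factor, read 6.61, 4.48 and 46.8 in null A, B and C, against 6.94, 6.81 and 13.1 in siblings A, B and C, also highest in null C. The row *COX7A2 (1 of many)* read 0.529, 4.901 and 4.03 in null A, B and C, against 1.77, 4.71 and 1.88 in siblings A, B and C, highest in null B.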
